A study of Rattus norvegicus with 30 samples.

Results

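The genes described here encode the chemokine CXCL12 and the proteins that bind it at the cell surface, the receptor CXCR4 and the atypical receptor ACKR3. They were chosen by name: the rows whose gene name is Cxcl12 (ENSRNOG00000013589), Cxcr4 (ENSRNOG00000003866) or Ackr3 (ENSRNOG00000019622), which are 3 of 30562 rows in the table. All 3 were among the 16171 genes with enough counts to test. RNA was sequenced from rat lung cells that had been pulled out with microbeads against CD31 (PECAM1), a surface protein of endothelial cells, 3 weeks after an operation. The operation was a sham or a Glenn procedure, which connects the superior vena cava with the pulmonary artery and so feeds the lung with venous blood that bypasses the liver. Rats of either operation were on a diet with control, low (deficient) or high (excess) vitamin A. All animals were labelled wild-type, and each of the 6 groups (sham control, sham deficient, sham excess, Glenn control, Glenn deficient and Glenn excess) held 5 libraries. Strain, sex and age are not given in the labels used here. Nor do they say whether libraries of a group came from separate animals, so p-values measure only the spread between libraries.

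CXCL12 is secreted by stromal and endothelial cells and signals through CXCR4, a receptor coupled to inhibitory G proteins that drives cell migration and the sprouting of vessels, where it marks the leading tip cells. ACKR3 binds the same chemokine, recruits arrestin instead of G proteins, and removes CXCL12 by internalising it. In the lung, the ligand and its receptors are known from vessel growth, the homing of blood cells and the repair of the alveolar wall.

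Library totals lay between 22 and 77.6 M estimated counts (M, mega), with a median of 40 M. Levels are given as CPM, counts per 1 M counts of a library after TMM scaling. Endothelial markers summed to 6807 to 8528 CPM after sham and 5078 to 7012 CPM after Glenn surgery. The sorted cells also carried transcripts of other cell types, among them Sftpc of type 2 alveolar cells at a median of 21628 CPM. The library names fall in 2 number ranges, called series A (22 libraries) and series B (8 libraries) here. Series B held replicates 3 to 5 of the sham deficient group, 4 and 5 of the Glenn deficient group and 3 to 5 of the Glenn excess group. The class I histocompatibility gene RT1-CE16 also divided the libraries, with 13 above 100 CPM and 17 below, and all 8 libraries of series B were among the 13. In cell mixtures such as these, fewer cells of a type and less RNA per cell cannot be told apart.

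The 250 bases upstream of each gene's start are shown because Cxcl12 and Cxcr4 changed in opposite directions after surgery and Ackr3 was not called. They come from the RefSeq table for rat build GRCr8, which is not the build used for the counts. They lie at chr4:152060531-152060780 (plus strand) for Cxcl12, chr13:42634289-42634538 (minus strand) for Cxcr4 and chr9:98247104-98247353 (plus strand) for Ackr3. Sequences run 5′ to 3′, and capitals mark matches to the motifs searched on both strands: the TATA box (TATAAA), the core bound by hypoxia-inducible factors (ACGTG or GCGTG), the GC element of the BMP effectors SMAD1 and SMAD5 (GGCGCC) and the half-site of retinoid and other nuclear receptors (AGGTCA).
Cxcl12: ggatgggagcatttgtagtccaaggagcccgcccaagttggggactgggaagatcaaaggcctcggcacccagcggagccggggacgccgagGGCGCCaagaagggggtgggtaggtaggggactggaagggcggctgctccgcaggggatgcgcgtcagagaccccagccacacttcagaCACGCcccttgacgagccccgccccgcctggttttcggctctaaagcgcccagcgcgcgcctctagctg
Cxcr4: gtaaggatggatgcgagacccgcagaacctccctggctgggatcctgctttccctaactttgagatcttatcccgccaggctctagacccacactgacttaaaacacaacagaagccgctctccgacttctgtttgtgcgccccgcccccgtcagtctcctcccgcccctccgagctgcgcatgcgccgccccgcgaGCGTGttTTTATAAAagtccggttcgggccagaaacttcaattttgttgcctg
Ackr3: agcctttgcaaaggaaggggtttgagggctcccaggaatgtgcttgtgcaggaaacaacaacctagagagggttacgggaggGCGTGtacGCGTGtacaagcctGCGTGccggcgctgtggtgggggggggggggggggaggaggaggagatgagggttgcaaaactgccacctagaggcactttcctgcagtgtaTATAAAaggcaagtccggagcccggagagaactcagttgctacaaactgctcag
The Cxcl12 window had a G and C content of 67.6%, 20 CG dinucleotides, 1 SMAD GC element 158 to 153 bases before the start and 1 hypoxia core on the other strand at 69 to 65. The Cxcr4 window had 57.6% G and C, 18 CG dinucleotides, a hypoxia core at 53 to 49 and a TATA box at 44 to 39 that overlaps a match on the other strand at 46 to 41. The Ackr3 window had 58.0% G and C, 9 CG dinucleotides, 3 hypoxia cores between 168 and 142 bases before the start and a TATA box at 54 to 49. The retinoid half-site letters did not occur in these windows. Among 33469 RefSeq windows of the same length, 12.9% held the TATA box, 36.7% a hypoxia core, 8.69% the SMAD element and 14.1% the half-site. The median window had 51.2% G and C and 5 CG dinucleotides. These matches describe letters only. The search used 1 window per gene, although RefSeq lists 3, 2 and 3 transcripts for Cxcl12, Cxcr4 and Ackr3, so any other starts were not searched.

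Cxcl12, the ligand, fell after Glenn surgery on the control diet. Its level in sham control libraries 1 to 5 was 80.2, 47.7, 90.0, 69.7 and 81.1 CPM. In Glenn control libraries it was 32.3, 28.8, 21.4, 33.2 and 29.8 CPM. Every Glenn control library lay below every sham control library, a separation that 17.2% of all genes tested showed in either direction. The log2 change was -1.34 (SE 0.21, edgeR adjusted p 1.68e-05), a level 2.53-fold lower, in a comparison where 13.1% of genes were called lower.

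On the deficient diet Cxcl12 stood at 72.5, 56.7, 79.7, 93.0 and 68.8 CPM after sham surgery. After Glenn surgery it stood at 56.8, 53.8, 64.8, 33.8 and 45.1 CPM. The groups overlapped, with 3 of 5 Glenn libraries below all sham libraries. On this diet 13.7% of genes were called lower. The log2 difference was -0.54 (SE 0.21, 95% interval -0.98 to -0.10) and missed the threshold (edgeR p 0.0167, adjusted p 0.0585). Glenn deficient libraries 4 and 5, which are from series B and RT1-CE16-high, were the lowest of their group. The difference was -0.14 in series A alone (edgeR adjusted p 0.798), -0.14 in RT1-CE16-low libraries (edgeR adjusted p 0.812) and -1.03 in RT1-CE16-high libraries (edgeR adjusted p 0.00395). On this diet series A and RT1-CE16-low are the same libraries, and the RT1-CE16-high libraries are those of series B. The first values are therefore not separate checks. The difference between the subsets was not tested.

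On the excess diet Cxcl12 stood at 64.9, 79.9, 61.4, 64.4 and 62.2 CPM after sham surgery. After Glenn surgery the libraries spread over 24.3, 57.9, 37.6, 44.5 and 61.6 CPM. In this diet 4 of 5 Glenn libraries lay below all sham libraries, and library 5 did not, in a comparison where 10.4% of genes were called lower. The log2 difference of -0.56 (SE 0.23, 95% interval -1.04 to -0.07) also missed the threshold (edgeR p 0.0251, adjusted p 0.0918). Without Glenn excess library 1, at 24.3 CPM, it was -0.28. All sham excess libraries were from series A and RT1-CE16-low, whereas Glenn excess libraries 3 to 5 were from series B and RT1-CE16-high. The difference was -0.68 in series A alone (edgeR adjusted p 0.0930) and -0.69 in RT1-CE16-low libraries (edgeR adjusted p 0.138). On this diet both subsets hold the same libraries, so they are not separate checks. Their only Glenn libraries are 1 and 2, at 24.3 and 57.9 CPM. Whether these diets were past the threshold depended on the settings of the test, and the values are in the closing section.

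Averaged over the diets, Cxcl12 went from 71.5 ± 12.5 CPM after sham to 41.7 ± 14.3 CPM after Glenn surgery (SD, n = 15 each). The log2 change was -0.81 (SE 0.12, edgeR adjusted p 2.62e-06). In this comparison 48.2% of all genes passed the same threshold, 24.7% in the lower direction, and Cxcl12 ranked 2002 of 16171 by p, so that a call alone was common. Glenn libraries overlapped sham libraries, and 10 of 15 lay below the lowest of them.

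Markers of vessel and wall cells moved with surgery as well, in a comparison where 23.4% of all genes were called higher and 24.7% lower. The 7 aerocyte capillary markers summed to 1463 to 2350 CPM after sham and 916 to 1344 CPM after Glenn surgery, with 4 lower and 2 higher. The 9 arterial markers summed to 1404 to 1969 and 1539 to 2554 CPM, with 6 higher and 3 lower. General capillary sums were 6665 to 10066 CPM after sham and 3238 to 6994 CPM after Glenn surgery (5 of 7 markers lower, 1 higher), and venous sums 1765 to 2925 and 1006 to 2447 CPM (4 of 7 lower, 2 higher). Plvap made up most of the fall in the general capillary sum. Its median went from 5163 to 1405 CPM, beside 8780 to 4147 CPM for the sum. All 5 type 2 epithelial markers were lower, with sums of 34242 to 59055 and 24396 to 55463 CPM. The part of the general capillary and venous lists in the Cxcl12 result was not tested. With arterial and aerocyte scores as covariates, the Cxcl12 difference averaged over diets was -0.59 (edgeR adjusted p 0.105) and that on the control diet -0.90 (edgeR adjusted p 0.0542). All 9 mural markers rose, from sums of 178 to 367 CPM to 541 to 1803 CPM, as did 7 of 8 fibroblast markers, from 1394 to 3432 CPM to 1962 to 4980 CPM. With mural and fibroblast scores as covariates, the Cxcl12 difference averaged over diets was -1.48, with an SE of 0.29 beside 0.12 without them. In that fit 1775 of all genes were called in place of 7792. With leukocyte and type 2 epithelial scores the Cxcl12 difference was -0.91. Scores were means of log2(CPM + 1) over the tested markers of a list. Glenn minus sham, they differed by -0.55 for aerocyte and 1.36 for mural markers. Aerocyte and mural sums did not overlap between operations, and whether the scores did is not shown. Fits with those scores were therefore not taken to separate surgery from the scores.

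Between diets, Cxcl12 after Glenn surgery was higher on the deficient than on the control diet in every library, without passing the threshold over all genes. The mean of the Glenn deficient group was 50.9 ± 11.9 CPM and that of the Glenn control group 29.1 ± 4.65 CPM (SD, n = 5 each). The log2 difference was 0.81 (SE 0.21, edgeR p 0.000796, adjusted p 0.236). The separation was narrow, with the lowest Glenn deficient library at 33.8 CPM and the highest Glenn control library at 33.2 CPM. Of all genes, 0.451% were higher on the deficient diet with no overlap, and 0.00618% were called in either direction. Fitted on these 10 libraries alone the difference was 0.99 (edgeR adjusted p 0.0277), and in DESeq2 it was 0.80 (adjusted p 0.0370). The fit on 10 libraries kept the series term, and the Glenn control group holds no series B library. Its estimate therefore rested on the series A libraries of the Glenn deficient group. In series A alone the difference was 1.00 (edgeR adjusted p 0.0959). It was 0.32 in RT1-CE16-high libraries (edgeR adjusted p 0.910), 1.08 in RT1-CE16-low libraries (0.302), and 0.53 and 0.50 with mural and fibroblast or arterial and aerocyte scores as covariates (0.387 and 0.999). On the excess diet the mean was 45.2 ± 15.2 CPM (SD, n = 5), with 4 of 5 libraries above all control libraries. That difference from the control diet was 0.64 (SE 0.23, edgeR p 0.0109, adjusted p 0.178), where 1.47% of genes were called.

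After sham surgery Cxcl12 was close across diets, at 73.7 ± 16.2, 74.1 ± 13.5 and 66.6 ± 7.60 CPM on the control, deficient and excess diets (SD, n = 5 each). The log2 differences were 0.01 for deficient against control (95% interval -0.47 to 0.49) and -0.15 for excess against control (-0.57 to 0.27). A test of whether the surgery difference of Cxcl12 depended on diet gave F = 4.94 (edgeR p 0.0152, adjusted p 0.758). The smaller differences on the deficient and excess diets were therefore not shown to differ from that on the control diet once all genes were considered.

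**Figure D1:**
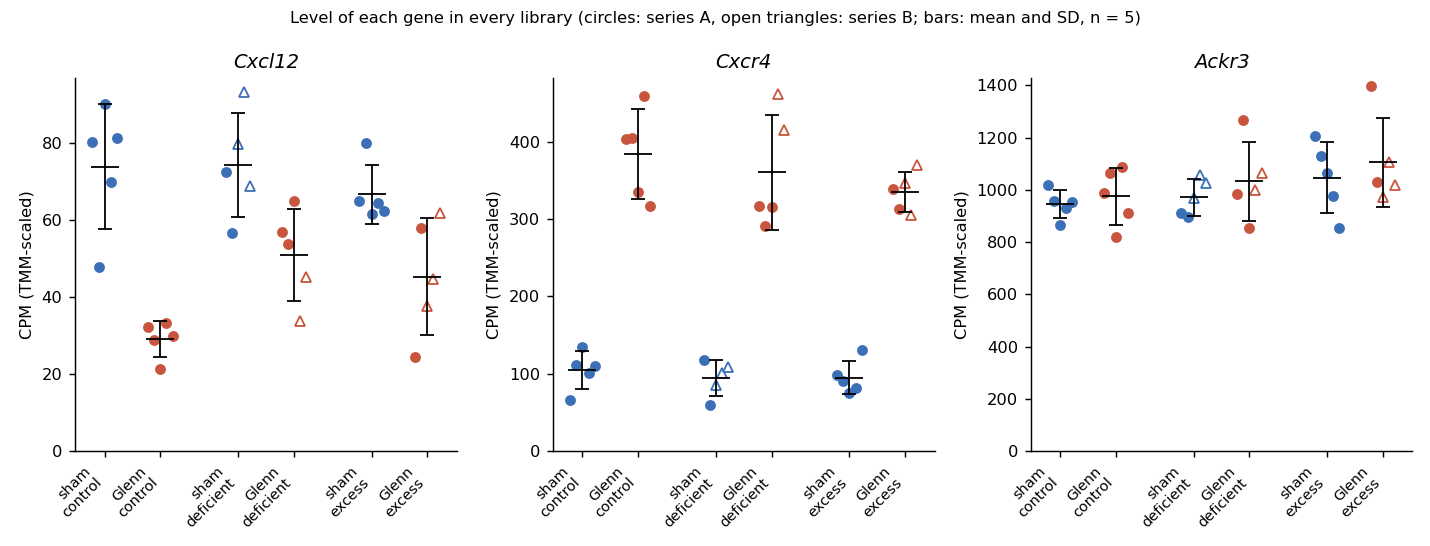
Level of each gene in CPM (vertical axis) in every library, by group (horizontal axis); circles are series A libraries, open triangles series B libraries, and bars group means with SD, n = 5. Cxcr4 is higher in every Glenn library than in any sham library, Cxcl12 has its lowest mean in the Glenn control group, whose libraries lie at 21.4 to 33.2 CPM, and Ackr3 overlaps in all groups.

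Cxcr4, the signalling receptor, rose after Glenn surgery on each diet. Its level was 65.9, 111, 134, 102 and 111 CPM in sham control libraries 1 to 5. In Glenn control libraries it was 403, 404, 335, 460 and 316 CPM. The groups were far apart, with the lowest Glenn library at 316 and the highest sham library at 134 CPM. On this diet 17.2% of genes did not overlap, in either direction. The log2 change was 1.87 (SE 0.18, edgeR adjusted p 3.48e-09), in a comparison where 11.8% of genes were called higher.

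On the deficient diet Cxcr4 stood at 119, 59.3, 85.6, 101 and 109 CPM after sham surgery. After Glenn surgery it stood at 318, 292, 316, 462 and 415 CPM. Again the groups did not overlap, as was the case for 19.6% of genes in either direction, and libraries 4 and 5 of the Glenn deficient group were the highest. The log2 change was 1.96 (SE 0.18, edgeR adjusted p 2.18e-09), with 13.7% of genes called higher.

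On the excess diet Cxcr4 stood at 98.4, 91.2, 75.0, 81.3 and 130 CPM after sham surgery. After Glenn surgery it stood at 339, 313, 347, 306 and 370 CPM, the narrowest spread of the Glenn groups. The groups did not overlap, as was the case for 16.3% of genes in either direction. The log2 change was 1.67 (SE 0.19, edgeR adjusted p 1.41e-07), with 11.6% of genes called higher.

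Averaged over diets, Cxcr4 went from 98.3 ± 22.1 to 359.7 ± 56.1 CPM (SD, n = 15 each). The fitted difference was 1.83 on the log2 scale (SE 0.10, edgeR adjusted p 1.80e-14), or 3.57-fold. Sham libraries ran from 59.3 to 134 CPM with a median of 101, and Glenn libraries from 292 to 462 CPM with a median of 339. In the higher direction 23.4% of genes were called, but 3.10% were higher in all 15 Glenn libraries than in all 15 sham libraries, and Cxcr4 ranked 161 of 16171 by p in this comparison. The surgery change of Cxcr4 did not pass a test for dependence on diet (F = 0.642, edgeR adjusted p 0.999).

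Leukocytes also carry CXCR4, so their markers are given here. Of 11 leukocyte markers listed, 8 were tested, with Csf1r, the macrophage growth factor receptor, higher and Lyz2, a lysozyme gene that type 2 alveolar cells also express, lower. Their sum, nearly all of it Lyz2, was 13029 to 24464 CPM after sham and 8080 to 18883 CPM after Glenn surgery. The pan-leukocyte gene Ptprc had a median of 2.42 CPM over all libraries, 3.18 after sham and 2.05 after Glenn surgery. Cd3e and Nkg7 of lymphocytes had medians under 1 CPM, and that of Cd52 was 0. With leukocyte and type 2 epithelial scores as covariates, and in 13 other settings, the Cxcr4 change averaged over diets lay between 1.68 and 2.18.

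Between diets Cxcr4 did not pass the threshold after either operation. The means after Glenn surgery were 384 ± 58.1, 360.4 ± 73.9 and 335 ± 26.1 CPM in the control, deficient and excess groups (SD, n = 5 each). The log2 differences from the control diet were -0.20 (95% interval -0.58 to 0.17, edgeR adjusted p 0.798) and -0.34 (-0.73 to 0.05, edgeR adjusted p 0.442). After sham surgery they were -0.29 (-0.68 to 0.10) for the deficient diet and -0.14 (-0.49 to 0.22) for the excess diet. Among all genes, 5.22% had an unadjusted edgeR p under 0.05 for the deficient diet after sham surgery, and 0.241% were called for the excess diet.

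Ackr3, the scavenging receptor, was not called for surgery on any diet. Its level in sham libraries 1 to 5 was 1019, 960, 866, 931 and 955 CPM on the control diet. On the deficient diet it was 911, 895, 971, 1055 and 1026 CPM, and on the excess diet 1206, 1130, 1064, 976 and 855 CPM. All 15 sham values lay within the range of the 15 Glenn values, 821 to 1398 CPM.

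After Glenn surgery Ackr3 stood at 989, 1066, 821, 1086 and 913 CPM on the control diet. On the deficient diet it stood at 983, 1268, 855, 999 and 1064 CPM, and on the excess diet at 1398, 1032, 973, 1107 and 1019 CPM. Glenn excess library 1, which had the lowest Cxcl12 of its group, had the highest Ackr3 of all 30 libraries. The coefficient of variation over all 30 libraries was 12.3%.

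The log2 difference of Ackr3 averaged over diets was 0.07 (SE 0.06, edgeR adjusted p 0.347), from 988 ± 97.4 to 1038 ± 146 CPM (SD, n = 15 each). Its 95% interval of -0.06 to 0.20 bounds the difference at this depth. Within diets it was 0.04 on the control diet (95% interval -0.18 to 0.26), 0.08 on the deficient diet (-0.14 to 0.31) and 0.09 on the excess diet (-0.15 to 0.34). Between diets the largest difference was 0.20 for excess against control after Glenn surgery (95% interval -0.05 to 0.44, edgeR adjusted p 0.493). With mural and fibroblast scores as covariates the difference averaged over diets was 0.47 (edgeR adjusted p 0.0143), and with leukocyte and type 2 epithelial scores it was -0.07. Mural marker sums did not overlap between operations, and whether the scores did is not shown. The fit with mural scores was therefore not taken to separate surgery from them.

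**Figure D2:**
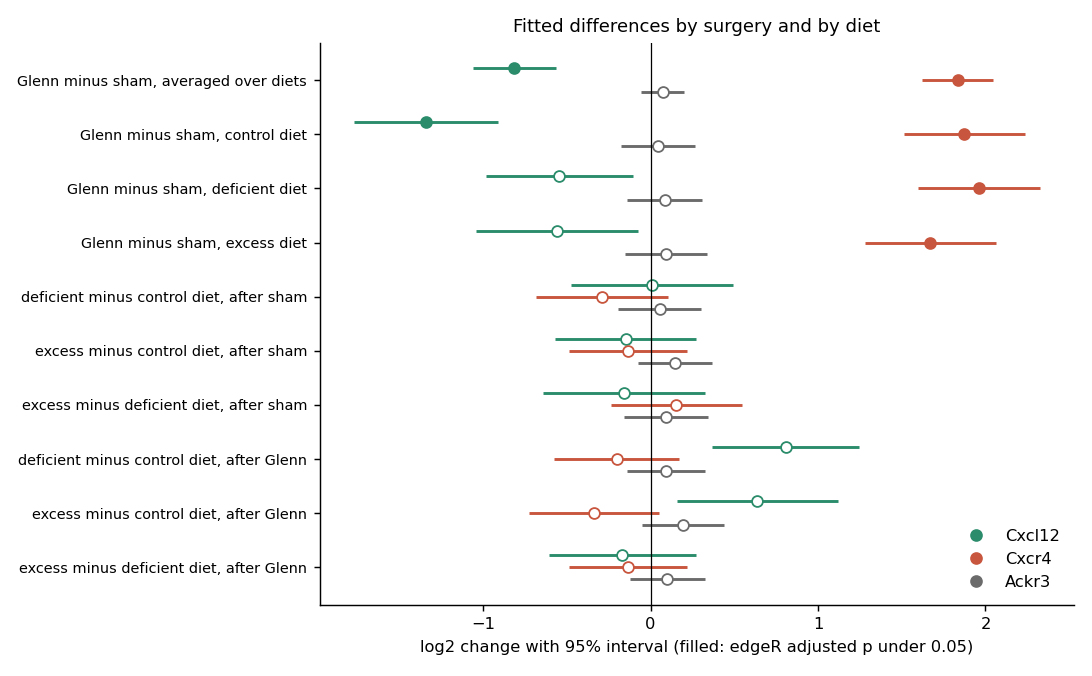
Fitted log2 difference (horizontal axis) of each gene for Glenn against sham, by diet and averaged, and for diets within each operation; points are edgeR estimates, filled where the adjusted p was under 0.05, and bars 95% intervals. Cxcr4 lies at 1.67 to 1.96 for surgery on all diets, Cxcl12 at -1.34 on the control diet and nearer 0 on the others, and every Ackr3 interval includes 0.

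In order from low to high, Cxcl12 ran from Glenn control through Glenn excess, Glenn deficient, sham excess and sham control to sham deficient, and each group overlapped its neighbour in this order. Cxcr4 ran from sham deficient through sham excess and sham control to Glenn excess, Glenn deficient and Glenn control. The one step without overlap was that from sham control to Glenn excess, 230.2 CPM between the means. Ackr3 ran from sham control, at 946 ± 55.2 CPM, to Glenn excess, at 1106 ± 170.3 CPM (SD, n = 5 each), with overlap at every step. CPM are not scaled by gene length, so these levels are not compared between the genes.

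The opposite moves of Cxcr4 and Cxcl12 widened the ratio between them. Cxcr4 over Cxcl12, in CPM, was 0.822 to 2.33 in sham libraries (median 1.36) and 4.87 to 15.6 in Glenn libraries (median 9.23), with no overlap. The mean log2 ratio was 2.73 higher after Glenn surgery, which is 6.63-fold and does not depend on gene length. Cxcr4 alone did not overlap between operations (log2 change 1.83), so the separation of the ratio is not a separate result. By group the median ratio was 1.46, 1.08 and 1.26 after sham surgery on the control, deficient and excess diets. After Glenn surgery it was 13.8, 5.59 and 6.87 on the same diets. The log2 ratio of Cxcr4 to Ackr3 was 1.83 higher after Glenn surgery, and that of Cxcl12 to Ackr3 differed by -0.90.

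**Figure D3:**
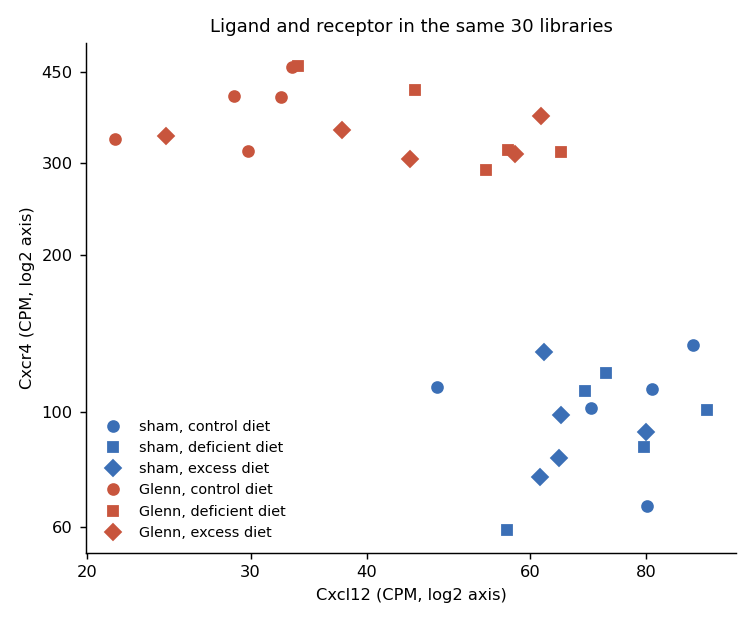
Cxcr4 level (vertical axis) against Cxcl12 level (horizontal axis), both in CPM on log axes, 1 point per library coloured by operation and shaped by diet. Sham and Glenn libraries form separate clouds along the Cxcr4 axis, with the 5 Glenn control libraries and 1 Glenn excess library (24.3 CPM) at the lowest Cxcl12, 21.4 to 33.2 CPM.

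Because sham and Glenn libraries form separate clouds, relations between the genes were computed within each operation, after group means were removed, for 6 relations of 15 libraries. None passed a permutation test: for Cxcl12 and Cxcr4 Pearson's r was 0.17 after sham (permutation p 0.590) and -0.23 after Glenn surgery (permutation p 0.398). Spearman's rho was 0.18 (permutation p 0.539) and -0.08 (permutation p 0.775). For Cxcl12 and Ackr3 r was 0.22 after sham (rho 0.28) and -0.29 after Glenn surgery (rho -0.22). For Cxcr4 and Ackr3 r was -0.26 (rho -0.20) and 0.16 (rho 0.28). Adjusted over the 6 relations, permutation p-values for r were 0.596 to 0.621 and for rho 0.647 to 0.775. Without the 2 libraries farthest from the median of the first gene, r after Glenn surgery was 0.06 for Cxcl12 with Cxcr4, 0.05 for Cxcl12 with Ackr3 and 0.51 for Cxcr4 with Ackr3 (permutation p 0.0777). After sham surgery it was 0.30, 0.25 and -0.44 for the same relations. With series means removed too, r was 0.11 and 0.15 for Cxcl12 with Cxcr4, 0.09 and -0.24 for Cxcl12 with Ackr3, and -0.37 and 0.27 for Cxcr4 with Ackr3, after sham and Glenn surgery in that order.

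The other genes of the pathway came from a list of 68, all present in the table, of which 66 were tested. Averaged over diets 17 rose, 23 fell and 26 were not called, so that 60.6% were called beside 48.2% of all genes, and their median log2 change was -0.04 beside -0.01. Within diets, 11 rose and 13 fell on the control diet, 11 and 15 on the deficient diet, and 12 and 14 on the excess diet. That is 36.4%, 39.4% and 39.4% called, beside 24.9%, 27.4% and 21.9% of all genes. This list and those below were chosen with earlier results of these data known. Their shares are therefore descriptive and are not evidence that the pathway changed more than other genes. Among the 9 other ligands and receptors of the network, 2 rose and 5 fell (77.8% called). Adm, which encodes adrenomedullin, a vessel-dilating peptide that ACKR3 also scavenges, went from 10.2 ± 2.08 CPM in sham to 90.9 ± 22.6 CPM in Glenn libraries (SD, n = 15 each), a rise of 3.13 on the log2 scale (SE 0.12, edgeR adjusted p 5.90e-18). Calcrl, the adrenomedullin receptor, fell from 1217 ± 153 to 423 ± 85.4 CPM (log2 change -1.54). Its partner Ramp2 fell from 1181 ± 98.5 to 709 ± 85.7 CPM (log2 change -0.73). None of these 3 genes overlapped between operations, a separation that 3.10% of all genes showed in the higher and 2.73% in the lower direction.

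Of 10 tested genes whose products bind, trim or present CXCL12, 3 rose and 2 fell, which is 50% called and near the 48.2% of all genes. Dpp4, the surface peptidase that removes the first residues of CXCL12 and inactivates it, went from 579 ± 68.0 CPM in sham to 248 ± 33.5 CPM in Glenn libraries (SD, n = 15 each) and fell by 1.24 on the log2 scale (SE 0.07, edgeR adjusted p 3.53e-15). The matrix metalloproteases Mmp2 and Mmp14, which cut CXCL12 as well as matrix proteins, rose with log2 changes of 1.51 and 1.06. Hs6st1, which adds sulfate to the heparan chains that hold chemokines, fell by 0.16 on the log2 scale. Dpp4, Mmp2 and Mmp14 did not overlap between operations (3.10% of all genes higher and 2.73% lower), whereas Hs6st1 did.

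Of 17 genes for G proteins, arrestins and receptor turnover, 3 rose and 6 fell, a share of 52.9% near the 48.2% of all genes. Rgs16 and Rgs4, which switch off G protein signals, rose by 2.51 and 2.23 on the log2 scale. Both did so without overlap, as did 3.10% of all genes in the higher direction. Rgs16 went from 12.4 ± 3.23 CPM in sham to 72.5 ± 20.4 CPM in Glenn libraries (SD, n = 15 each). Gnao1, an inhibitory-class G protein subunit, fell from a mean of 16.5 to 5.31 CPM (log2 change -1.68), without overlap (2.73% of all genes lower). Grk5, a receptor kinase, fell by 0.44 on the log2 scale with overlap. Of 17 downstream kinases and motility genes, 4 rose and 5 fell, again 52.9%. The adhesion adaptor Pxn (log2 change 0.21) was higher, and the small GTPase gene Rac1 (-0.27) and the adaptor Bcar1 (-0.31) lower, all with overlap.

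Of 13 transcription factors reported to act on Cxcl12, Cxcr4 or Ackr3, 5 rose and 5 fell (76.9% called, beside 48.2% of all genes). Hif1a, a hypoxia-inducible factor, rose from a mean of 111 to 166 CPM (log2 change 0.58), while Epas1, which encodes the related HIF2A, fell from 5411 to 2765 CPM (log2 change -0.95). Klf2, a factor induced by laminar flow, fell from 1474 to 656 CPM (log2 change -1.16). Foxc1, a forkhead factor of vessels, rose by 1.23 on the log2 scale from a mean of 3.07 CPM. Hif1a, Epas1 and Klf2 did not overlap between operations (3.10% of all genes higher and 2.73% lower), and Foxc1 did. Mural and fibroblast marker sums rose in the same comparison, and with their scores as covariates 18 of the pathway genes were called in place of 40, and 1775 of all 16171 genes in place of 7792. With arterial and aerocyte scores 20 pathway genes and 2643 of all genes were called.

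**Figure D4:**
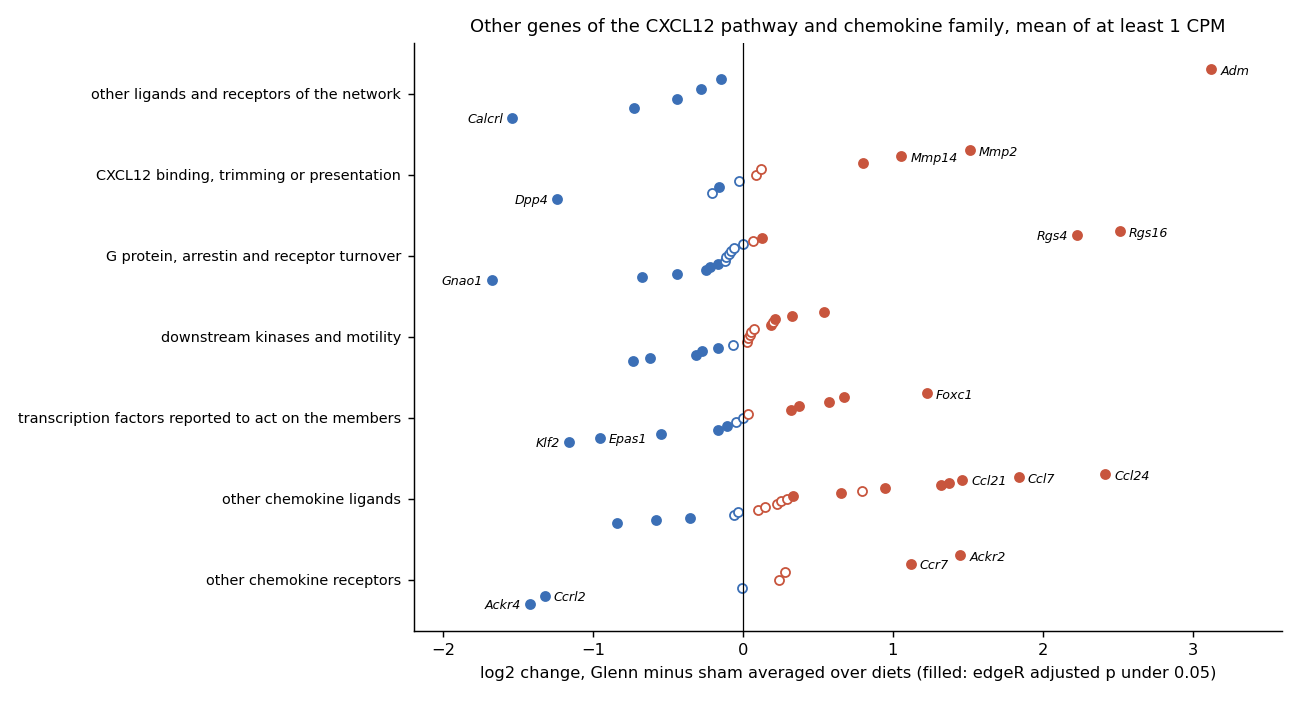
Log2 change after Glenn surgery, averaged over diets (horizontal axis), for the other pathway and chemokine genes by role (rows), shown where the mean level was 1 CPM or more; each point is a gene, filled where the edgeR adjusted p was under 0.05. Adm at 3.13 is farthest to the right, and Gnao1 at -1.68 and Calcrl at -1.54 are farthest to the left.

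The other chemokine ligands and receptors numbered 54, of which 41 were tested. Averaged over diets 12 rose, 5 fell and 24 were not called, so that 41.5% were called beside 48.2% of all genes. Their median log2 change was 0.23 beside -0.01. Of 26 ligands 10 rose and 3 fell (50% called), and of 15 receptors 2 rose and 2 fell (26.7% called). Ccl21, the lymphatic chemokine that guides dendritic cells, rose from a mean of 719 to 1938 CPM (log2 change 1.46). It is also one of 7 lymphatic markers, all of which rose. Sham libraries had lymphatic sums of 1099 to 2023 CPM, and Glenn libraries had 2494 to 5124 CPM. Ccl21 made up most of this rise. Its median went from 717 to 1834 CPM, beside 1718.8 to 3332.5 CPM for the sum. The rise of the sum is therefore not a separate result from that of Ccl21. The part of lymphatic cells in the changes of Ccl21 and the other markers was not tested. The ligands Ccl24, which attracts eosinophils, and Ccl7, which attracts monocytes, rose from 3.42 to 17.9 and from 1.32 to 4.72 CPM (log2 changes 2.42 and 1.84).

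Among the atypical receptors related to Ackr3, Ackr4, which scavenges CCL19 and CCL21, fell from a mean of 124 to 47.4 CPM (log2 change -1.42), and Ackr2, a scavenger of inflammatory CC chemokines, rose from 4.38 to 11.7 CPM (log2 change 1.45). Ccrl2, which holds chemerin at the surface, fell from 90.3 to 35.8 CPM (log2 change -1.32). The neutrophil chemokine Cxcl3 and the lymphoid chemokine Ccl19 fell by 0.58 and 0.84 on the log2 scale, with overlap. Ccl21, Ccl24, Ccl7, Ackr4 and Ccrl2 did not overlap between operations (3.10% of all genes higher and 2.73% lower), and Ackr2 did.

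The genes whose levels followed each gene most closely over the 30 libraries were sought among 12646 genes. These correlations describe libraries that share the groups, and no test is attached. For Cxcr4 they were Kcna3, a potassium channel gene (r 0.97), Tgif1, a repressor of TGF-beta and retinoid signals (r 0.96), and Nsg1 (r 0.96). Kcna3 went from a mean of 2.54 to 17.8 CPM, Tgif1 from 37.2 to 96.1 CPM and Nsg1 from 30.5 to 131 CPM between sham and Glenn libraries. For Cxcl12 they were Pdgfd, a platelet-derived growth factor gene (r 0.85, 67.3 to 33.3 CPM), Acsf2 (r 0.84) and Zfp775 (r 0.84). For Ackr3, which did not separate the operations, they were Gkap1 (r 0.76), Arf4 (r 0.75) and Bcl10 (r 0.74).

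With group means removed, which leaves the variation among libraries of one group, the closest genes were others. For Cxcl12 they were Angpt1, which encodes the Tie2 ligand angiopoietin-1 (r 0.75), Dock10 (r 0.73) and Afap1l2 (r 0.72), each with a higher mean after Glenn surgery although Cxcl12 was lower. For Cxcr4 they were Ppp1r3b (r 0.73), Acbd4 (r 0.69) and Ets2 (r 0.68). For Ackr3 they were Rassf1 (r 0.83), the stress- and glucocorticoid-induced kinase gene Sgk1 (r 0.82) and Tgif2 (r 0.80). By the same measure Cxcl12 had r -0.01 with Cxcr4 and -0.13 with Ackr3, and Cxcr4 had r -0.06 with Ackr3.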

How the data were processed

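The deposited table gives, per the file headers, gene identifiers, gene names and estimated counts for 30 libraries. Per the submitters' processing notes the tools included FastQC, Trim Galore, Picard, STAR and Salmon, and the build was mRatBN7.2 (rn7). Tool versions, annotation and strandedness are not given in the sources used here, so reads shared with overlapping genes may be included. RNA isolation used a PureLink kit and library preparation a SMART-Seq v4 kit for low input, per the labels' protocols. Of the estimated counts the authors deposited, 12.5% were not whole (tolerance 0.001). All were rounded, and 0 sample columns were left unused.

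Genes were kept with filterByExpr (minimum count 10, minimum total 15) and scaled by TMM (factors 0.938 to 1.06). One edgeR 4.0.16 quasi-likelihood fit (glmQLFit, robust) in R 4.3.3 held all 30 libraries, the 6 groups and library series as an additive term. P-values were adjusted by Benjamini-Hochberg over all 16171 genes tested, and an adjusted p under 0.05 was a call. Intervals used 23 residual degrees of freedom. Permutation tests were two-sided with 100000 resamples. Steps were tested on simulated data.

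The 3 genes and the lists were chosen with earlier results of these data known. From each role of the pathway list the text names up to 2 genes called higher and 2 called lower with the smallest adjusted p (4 and 4 for chemokines), with a mean of at least 1 CPM. Values of some listed genes are not reported here. For each of the 3 genes it names the 3 with the highest Pearson r of log2(CPM + 1). An RT1-CE16 level over 100 CPM made a library RT1-CE16-high, and a Ddx3y level over 10 CPM made it male in an added sex term. Alternatives were other scalings, tests (DESeq2 1.42.0, limma 3.58.1 voom), filters, terms, library subsets, and leaving out each library. The newer edgeR dispersion method was chosen after seeing the data. Promoters came from RefSeq, where all 3 genes matched by symbol, and figures were drawn with matplotlib 3.10.9.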

Additional observations from a re-analysis of the deposited data

Results flagged for a closer look

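In the sham excess group, replicate 2 had a Cxcl12 level of 79.9 CPM while the other 4 libraries lay between 61.4 and 64.9 CPM. Its gap to the nearest library was 0.814 of the range of the group. This was 1 of 18 sets of 5 libraries tested (3 genes in 6 groups), where chance gives about 0.9. Without this library, the Cxcl12 differences that use the sham excess group kept their direction and their side of the threshold.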

How the results depend on the processing

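Cxcr4 rose on every diet, and averaged over diets, in each alternative run and with each library left out. Cxcl12 on the deficient diet, -0.54, passed the threshold (edgeR unless named) without the series term (-0.54, adjusted p 0.0448), fitted on the groups compared (-0.58, 0.0433), in DESeq2 (-0.53, 0.0295), limma voom (-0.55, 0.0459), RT1-CE16-high libraries (-1.03, 0.00395) and with mural and fibroblast (-1.29, 0.0233) or leukocyte and type 2 epithelial scores (-0.72, 0.0353) as covariates. On the excess diet, -0.56, it passed without the series term (-0.56, 0.0394), in voom (-0.65, 0.0384), with RT1-CE16 level as the term (-0.63, 0.0367) and with mural and fibroblast scores (-1.34, 0.0334). With arterial and aerocyte scores Cxcl12 lost its call averaged over diets (-0.59, 0.105) and on the control diet (-0.90, 0.0542). Deficient against control after Glenn surgery passed in DESeq2 (0.80, 0.0370) and on those groups alone (0.99, 0.0277). The latter estimate rested on series A libraries, because Glenn control holds none of series B. With mural and fibroblast scores Ackr3 passed averaged over diets (0.47, 0.0143) and on the excess diet (0.55, 0.0468). Aerocyte and mural marker sums did not overlap between operations, and whether the scores did is not shown. Fits with those scores were therefore not taken to separate surgery from the scores. The causes were not tested.

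Small differences changed sign. Fits on those groups alone kept the series term. Sham control and sham excess hold no series B library, so such fits against them rested on series A libraries. On the deficient and excess diets the series A libraries are also the RT1-CE16-low ones, so these subsets are not separate checks there. For Cxcl12, deficient against control after sham was -0.19 in series A and -0.19 on those groups alone; excess against deficient after sham was 0.036 in series A, 0.037 in RT1-CE16-low libraries, 0.049 with mural and fibroblast scores and 0.034 on those groups alone. Excess against control after sham was 0.056 in RT1-CE16-low libraries and 0.067 with mural and fibroblast scores, and excess against deficient after Glenn was 0.29 in RT1-CE16-high libraries. For Cxcr4, excess against deficient after Glenn was 0.078 in series A and 0.083 in RT1-CE16-low libraries, excess against control after sham 0.0096 with the RT1-CE16 term and 0.10 in RT1-CE16-low libraries, and deficient against control 0.010 after sham in RT1-CE16-low and 0.18 after Glenn in RT1-CE16-high libraries. For Ackr3, deficient against control after sham was -0.065 in series A, -0.065 on those groups alone and -0.13 in RT1-CE16-low libraries, and Glenn against sham on the control diet was -0.034 in RT1-CE16-low libraries. With leukocyte and type 2 scores Ackr3 differences were -0.068 averaged, -0.031, -0.099 and -0.073 for the control, deficient and excess diets, and -0.029 for deficient against control after Glenn. After Glenn surgery the relation of Cxcl12 to Cxcr4 was 0.058 without the 2 farthest libraries and 0.15 with series means removed, and that of Cxcl12 to Ackr3 was 0.046 without them.

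Called pathway genes numbered 18, 14, 10 and 11 (averaged, control, deficient, excess) with mural and fibroblast scores, where calls over all genes numbered 1775, 1875, 1125 and 922 in place of 7792, 4023, 4423 and 3549. They numbered 20, 17 and 16 (averaged, deficient, excess) with arterial and aerocyte scores (all genes 2643, 2557 and 1042), and 17 on the deficient diet in series A (all genes 2553). Called chemokine genes numbered 11 averaged with either pair of scores, 7 on the excess diet with arterial and aerocyte scores, 8 on the deficient diet in series A or in RT1-CE16-high libraries (all genes 2336 in the latter), and 6 on the control diet in RT1-CE16-low libraries (all genes 1563).

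With each library left out, Cxcl12 ran from -0.67 to -0.37 on the deficient diet, past the threshold without 5 of the libraries (sham control 2, sham deficient 2, Glenn deficient 3, Glenn excess 1 or Glenn excess 5). On the excess diet it ran from -0.77 to -0.28, past it without Glenn deficient 4, Glenn excess 2 or Glenn excess 5. Changing sign, Cxcl12 ran from -0.11 to 0.16 for deficient against control after sham and from -0.34 to 0.052 for excess against deficient after Glenn. Cxcr4 for excess against deficient after sham ran from -0.015 to 0.41. Ackr3 ran from -0.066 to 0.15 for surgery on the excess diet, from -0.00100 to 0.11 for deficient against control after sham, from -0.013 to 0.16 for the same after Glenn and from -0.024 to 0.18 for excess against deficient after Glenn.

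Same-numbered libraries did not deviate together in every pair (mean correlation per number 0.02 to 0.16, lowest -0.25), so the numbers were not taken as pairs. With the replicate number as a block, Cxcl12, Cxcr4 and Ackr3 averaged over diets were -0.81, 1.85 and 0.050, 7787 genes were called in place of 7792, and Ackr3 for deficient against control after sham was -0.040, the one sign that changed. The averaged and interaction tests use all groups, so no fit of the groups compared was made for them, and RT1-CE16-high libraries hold no sham excess library, so comparisons with that group were not made there. Cxcl12, at 21.4 CPM or more, and the receptors were far above the count filter.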
